A study of Mus spretus with 8 samples.

Results

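Coenzyme A turnover in liver was described through 10 genes of its synthesis, hydrolysis, salvage and release from acyl groups: Pank1 and Pank3, Nudt7 and Nudt19, Vnn1 and Vnn3, and Acot1, Acot2, Acot4 and Acot12. Every probe annotated to 1 of these symbols was taken, which gave 20 of the 42957 probes and 10 of the 22471 named genes of the array. Livers came from 8 males of Mus spretus, inbred strain SPRET/EiJ, each measured on 1 single-colour array. The mice were aged 7 weeks, which the design text states beside the DDE group. The DDE group was 4 mice that received p,p'-DDE, the long-lived breakdown product of DDT, at 450 mg/kg in Harlan feed with corn oil for 30 days. The control group was 4 mice kept for 30 days on Harlan feed and corn oil without DDE. No further allele or agent was named for either group. The 10 genes were chosen by their DDE-minus-control differences on these same arrays, so those differences and their adjusted p are a description and support nothing further.

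Coenzyme A carries acyl groups through fatty acid oxidation, lipid synthesis and the tricarboxylic acid cycle. It is built from pantothenate (vitamin B5), with pantothenate kinases as the first and controlling step. Nudix hydrolases cut it inside organelles, and pantetheinases free pantothenate and cysteamine from pantetheine, a later product of its breakdown. Acyl-CoA thioesterases split acyl-CoA into a free acid and free coenzyme A, each in its own compartment. In rodent liver Vnn1, Pank1, Acot1 and Acot2 are known target genes of PPARalpha, the fatty acid receptor.

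Values are log2 signals as deposited, so a difference of 1 is a doubling. The array background, taken as the 0.95 quantile of olfactory and vomeronasal receptor probes, lay between 7.55 and 7.81. Neighbouring spots deviated together in patches, and such stained spots made up between 0.52% and 9.50% of an array, with the highest shares on DDE 4 and control 4. Hepatocyte markers were bright on every array, with a list mean of 14.70 to 15.19 in DDE livers and 14.86 to 15.25 in control livers. Of these Alb, Apoa2 and Serpina1a lay near the top of the scale (16.0) on every array, so they could show little difference between groups. Of the 4 measured markers of pancreas or fat, 2 were bright on every array too. These were the pancreatic enzyme genes Cpa1, at 13.18 to 15.55 in DDE livers and 11.50 to 15.99 in control livers, and Cela3b, at 13.40 to 15.85 in DDE livers and 12.43 to 15.99 in control livers. The fat markers Adipoq and Plin1 stayed near background on most arrays. A fit with the pancreatic level as a covariate is given beside each result whose call it changed. Among markers of other liver cells, 0 of 4 bile duct, 0 of 5 lymphocyte, 0 of 5 Kupffer and 0 of 5 sinusoidal genes passed the threshold of limma, and of these only Cd5l of Kupffer cells had an unadjusted p under 0.05, lower in DDE. Of 5 stellate markers Reln passed at 0.38, close to background, and at an unadjusted p under 0.05 there were 3 higher and 1 lower. Dcn, the brightest of them, averaged 12.22 ± 0.45 in DDE and 13.18 ± 0.19 in control (SD, n = 4 each, limma adjusted p = 0.0767), while Lrat and Col1a1 had 0.34 and 0.62 (adjusted p = 0.144 and 0.152), and these 3 did not overlap between groups. The stellate list mean was 9.07 to 10.06 in DDE livers and 8.94 to 9.32 in control livers, where the highest value, DDE 4, holds a stained Des spot at 13.65. The part of these cells in the results was not tested. With whole tissue, fewer cells of a type and less RNA per cell cannot be told apart.

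Nudt7 was lower and Vnn1 higher in DDE livers, and these were the 2 of 10 genes past the threshold at the brightest probe (limma, Benjamini-Hochberg adjusted p under 0.05 over all 42957 probes). Over all probes, 2 of 20 passed. Across the array 3.35% of genes at their brightest probe passed, 2.58% higher and 0.774% lower, and 3.00% of all probes did. Among probes above background on all 8 arrays, as all 20 were, 7.47% passed. The 2 groups did not overlap for 4 genes, higher in DDE for Vnn1, Vnn3 and Acot2 and lower for Nudt7, while 12.5% of all genes had groups without overlap (8.48% higher, 4.06% lower). The median difference of the 10 genes was 0.36, against 0.02 over all genes, and 8 of the 10 differences were positive. Nothing is read from these counts, as the comparison itself served to pick the genes.

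**Figure D1:**
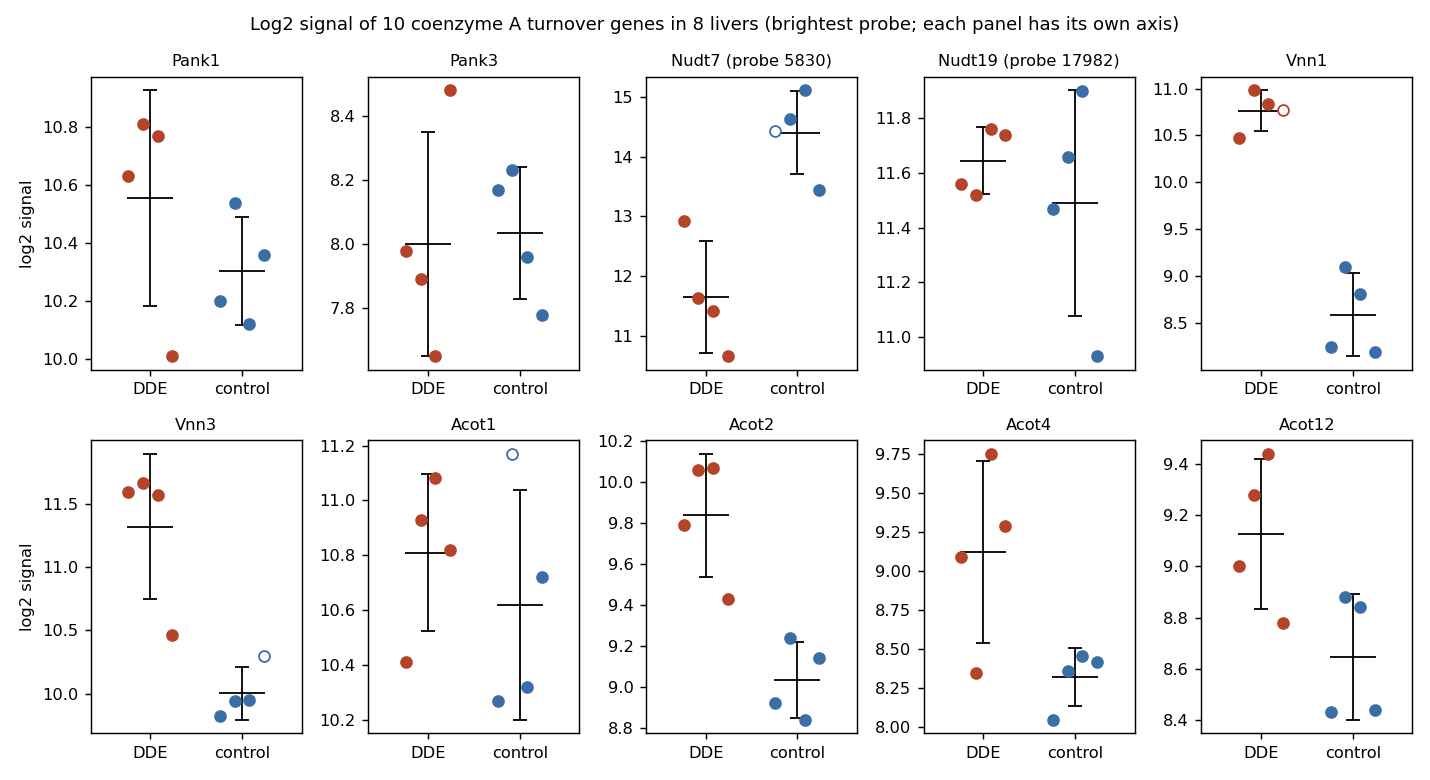
Log2 signal of each gene at its brightest probe, with 1 point per liver, the 4 DDE livers in red on the left and the 4 control livers in blue on the right of each panel. Within a group the points run from mouse 1 to mouse 4, open points lie on stained spots, and the bar is the mean with its SD. The groups do not overlap for Nudt7, Vnn1, Vnn3 and Acot2.

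Nudt7 encodes the peroxisomal hydrolase that cuts coenzyme A and acyl-CoA into phosphopantetheine products and an adenosine bisphosphate. Its brighter probe (5830) had 12.92, 11.63, 11.42 and 10.66 in DDE livers 1 to 4, against 14.43, 14.63, 15.11 and 13.45 in control livers 1 to 4. Every DDE liver lay below every control liver, and the gap between the nearest values, DDE 1 and control 4, was small beside the range within either group. The means were 11.66 ± 0.94 in DDE and 14.41 ± 0.70 in control (SD, n = 4 each), 6.72-fold lower with a 95% interval of 2.81 to 16.0 (difference -2.75 ± 0.53 SE, limma adjusted p = 0.0449). Ordered from the most negative over all probes, the difference ranked 26. The spread within groups was also large, with a pooled SD above that of 94.0% of the probes above background.

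The second Nudt7 probe (15400), annotated to another transcript accession, gave the same picture at a smaller size. It had 11.21, 10.11, 9.66 and 9.44 in DDE livers 1 to 4, against 12.01, 11.97, 12.94 and 11.73 in control livers 1 to 4. The DDE livers stood in the same order at both probes, from DDE 1 down to DDE 4, and control 3 was the highest and control 4 the lowest control at both. The difference was -2.06 ± 0.44 (SE), 4.16-fold lower with a 95% interval of 2.05 to 8.46, and it missed the threshold (limma adjusted p = 0.0576). With the mean of both probes Nudt7 passed, at -2.40 (adjusted p = 0.049).

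The call for Nudt7 depended on single arrays and on how the variance was estimated. At the brighter probe the difference stayed between -3.17 and -2.42 when any array was left out, but the adjusted p was 0.127 without DDE 2, 0.115 without DDE 3, 0.0643 without DDE 4, 0.097 without control 1, 0.123 without control 2 and 0.114 without control 3. It was still called without DDE 1 and without control 4. With all arrays and trend and robust variance the adjusted p was 0.0575. With stained spots left out, among them that of control 1, it was -2.74 (adjusted p = 0.0637), and with the pancreatic level as a covariate -2.70 (adjusted p = 0.106). At the second probe leaving out DDE 1 brought the adjusted p to 0.0374, at a difference of -2.43.

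Nudt19 encodes another peroxisomal coenzyme A hydrolase of the same enzyme class, best known from mouse kidney. It had 10 probes, all with the same accession, so they may be repeated spots of 1 sequence. The median over the 10 was 11.34, 11.48, 11.09 and 11.33 in DDE livers 1 to 4, against 11.51, 11.57, 11.22 and 10.85 in control livers 1 to 4. The DDE livers lay inside the range of the control livers. Means of these medians were 11.31 ± 0.16 in DDE and 11.29 ± 0.33 in control (SD, n = 4 each), a difference of 0.02.

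The 10 probes also show how far spots with 1 accession spread within a single array. The range from the lowest to the highest spot was 0.60 on DDE 1, 0.68 on DDE 2, 1.10 on DDE 3 and 1.09 on DDE 4. On control arrays 1 to 4 it was 0.24, 0.44, 1.56 and 0.82. The widest spread, on control 3, had an unstained spot at each end, and without its 2 stained spots the median there was 10.95. The differences of the single probes ran from -0.37 to 0.21 with a median of 0.12, 2 of them negative and 8 positive, and the groups overlapped at all 10. The lowest adjusted p among them was 0.449 (limma). At the brightest probe (17982) the 95% interval of the difference was -0.32 to 0.63.

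**Figure D2:**
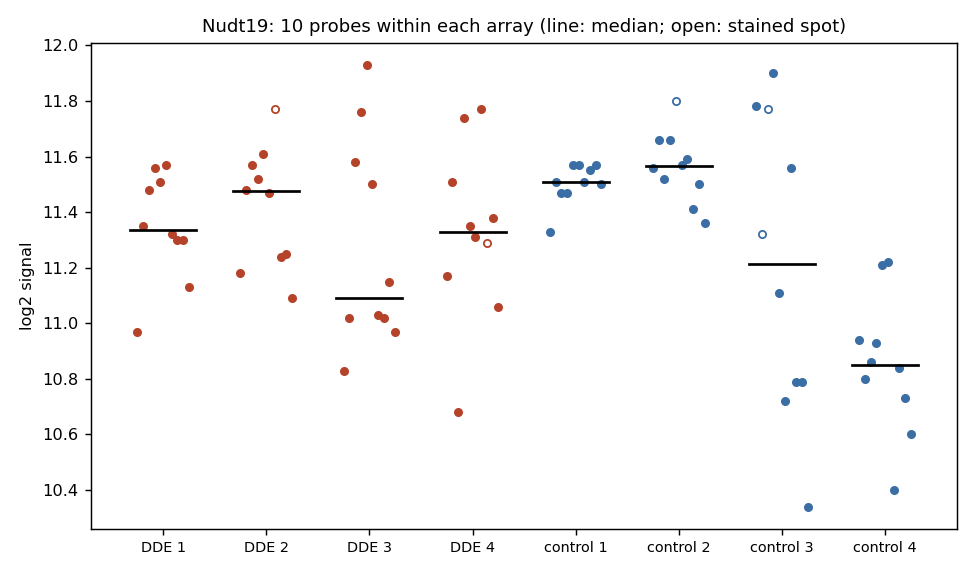
The 10 Nudt19 probes within each array as log2 signal, DDE arrays in red on the left and control arrays in blue on the right. Lines are medians over the 10, between 11.09 and 11.48 on DDE arrays and between 10.85 and 11.57 on control arrays, and open points are stained spots.

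The pantetheinases were the genes with the largest positive differences among the 10. Vnn1 encodes vanin-1, the membrane-anchored enzyme that splits pantetheine into pantothenate and cysteamine. It had 10.47, 10.98, 10.84 and 10.77 in DDE livers 1 to 4, against 8.25, 9.10, 8.81 and 8.19 in control livers 1 to 4. The lowest DDE liver lay more than 1 log2 unit above the highest control liver. The means were 10.77 ± 0.22 in DDE and 8.59 ± 0.44 in control (SD, n = 4 each), 4.52-fold higher with a 95% interval of 3.12 to 6.56 (difference 2.18 ± 0.23 SE, limma adjusted p = 0.00888). Ordered from the most positive over all probes, the difference ranked 108. Vnn1 passed without each array in turn (2.05 to 2.35, adjusted p from 0.015 to 0.038), with its stained spot on DDE 4 left out (2.18, adjusted p = 0.0115) and with the pancreatic level as a covariate (2.07, adjusted p = 0.0149). With the replicate number as a block, Vnn1 missed the threshold (limma adjusted p = 0.0541).

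Vnn3 encodes a related pantetheinase of the same gene family. It had 11.59, 11.66, 11.57 and 10.46 in DDE livers 1 to 4, against 9.82, 9.94, 9.95 and 10.30 in control livers 1 to 4. Of the DDE livers 3 lay within 0.1 of each other, while DDE 4 lay close to control 4, the highest control and a stained spot. The SD was 0.57 in DDE and 0.21 in control (n = 4 each), and DDE was 2.49-fold above control with a 95% interval of 1.57 to 3.95 (difference 1.32 ± 0.28 SE). This missed the threshold (limma adjusted p = 0.0597). Without DDE 4, the lowest DDE value, the difference was 1.60 with an adjusted p of 0.00678. With any other single array left out Vnn3 missed the threshold (limma adjusted p of up to 0.16, without DDE 2), as it did with trend and robust variance (0.0817).

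The kinases of the first step showed little difference. Pank1 encodes a pantothenate kinase that is abundant in liver. It had 10.63, 10.81, 10.77 and 10.01 in DDE livers 1 to 4, against 10.20, 10.54, 10.12 and 10.36 in control livers 1 to 4. DDE livers 1 to 3 lay above every control liver and DDE 4 lay below them all, so the groups overlapped (difference 0.25 ± 0.19 SE, limma adjusted p = 0.632). The 95% interval for Pank1 was -0.21 to 0.71, so a level up to 1.63-fold of control is within it. Pank3, a kinase of the same family, was dim, with 7.98, 7.89, 7.65 and 8.48 in DDE livers 1 to 4, against 8.17, 8.23, 7.96 and 7.78 in control livers 1 to 4. All its values were above the background of their array, but by little, and the groups overlapped fully (difference -0.04 ± 0.19 SE, adjusted p = 0.938).

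Among the thioesterases, Acot2 had the clearest separation. Acot2 encodes the mitochondrial enzyme for long-chain acyl-CoA, and it had 9.79, 10.06, 10.07 and 9.43 in DDE livers 1 to 4, against 8.92, 9.24, 8.84 and 9.14 in control livers 1 to 4. The groups did not overlap, with DDE 4 the lowest DDE liver. The means were 9.84 ± 0.30 in DDE and 9.04 ± 0.19 in control (SD, n = 4 each), 1.74-fold with a 95% interval of 1.33 to 2.29 (difference 0.80 ± 0.17 SE). It missed the threshold (limma adjusted p = 0.0557), with 0.0218 without DDE 4 and 0.0399 when stained spots anywhere on the arrays were left out. With any other single array left out Acot2 missed too (adjusted p of up to 0.149, without DDE 2), as it did with trend and robust variance (0.102).

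Acot1, the cytosolic counterpart of Acot2, had 10.41, 10.93, 11.08 and 10.82 in DDE livers 1 to 4, against 10.27, 11.17, 10.32 and 10.72 in control livers 1 to 4. The highest value was in a control liver, on a stained spot, and the groups overlapped (difference 0.19 ± 0.24 SE, limma adjusted p = 0.697). The Acot1, Acot2 and Acot4 genes belong to a cluster with closely related sequences in mouse, so their probes may bind each other's transcripts, and the single values are uncertain to that extent. Within each array the Acot2 signal minus the Acot1 signal was -0.62, -0.87, -1.01 and -1.39 in DDE livers 1 to 4, against -1.35, -1.93, -1.48 and -1.58 in control livers 1 to 4. Only the shift between groups can be read from this, as the probes differ, and its mean shifted by 0.61 with DDE 4 inside the control range.

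Acot4, whose product is a peroxisomal thioesterase known in mouse for succinyl-CoA, had 9.09, 8.35, 9.75 and 9.29 in DDE livers 1 to 4, against 8.05, 8.36, 8.46 and 8.42 in control livers 1 to 4. DDE 2 lay at the level of the controls and the other DDE livers above them all (difference 0.80 ± 0.28 SE, limma adjusted p = 0.228). Acot12, a cytosolic enzyme that hydrolyses acetyl-CoA, had 9.0, 9.28, 9.44 and 8.78 in DDE livers 1 to 4, against 8.43, 8.88, 8.84 and 8.44 in control livers 1 to 4. DDE 4 lay below the 2 higher controls, and the difference of 0.48 ± 0.18 (SE) missed the threshold (adjusted p = 0.264).

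**Figure D3:**
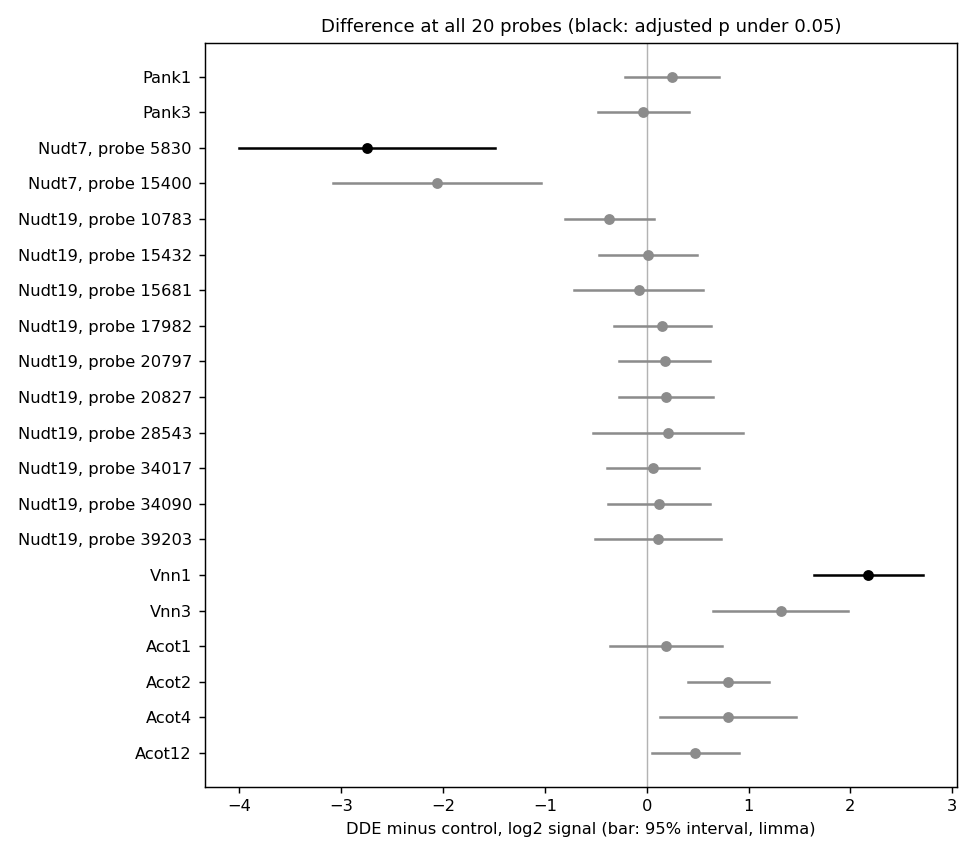
Difference in log2 signal, DDE minus control, at all 20 probes, with 95% limma intervals and the genes in order of their step in the pathway. The Nudt7 probe at -2.75 and Vnn1 at 2.18 are drawn in black because their adjusted p was under 0.05.

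No DDE liver stood apart for all 10 genes, but DDE 4 was the lowest DDE liver for 5 of them (Pank1, Nudt7, Vnn3, Acot2 and Acot12). DDE 3 was the highest for 5 (Nudt19, Acot1, Acot2, Acot4 and Acot12). Nudt7 was highest in DDE 1, the liver in which Vnn1 was the lowest of its group. Among controls, control 2 was the highest for 6 genes, and it was the control with the lowest pancreatic enzyme signals. DDE 4 and control 4 were also the arrays with the lowest weights when array quality was estimated from all probes, 0.46 and 0.38. Without both, Nudt7 at its brighter probe, Vnn1, Vnn3 and Acot2 passed (adjusted p = 0.0415, 0.0265, 0.00462 and 0.0348, limma). The second Nudt7 probe did not pass without both, at -1.98 (limma adjusted p = 0.106).

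**Figure D4:**
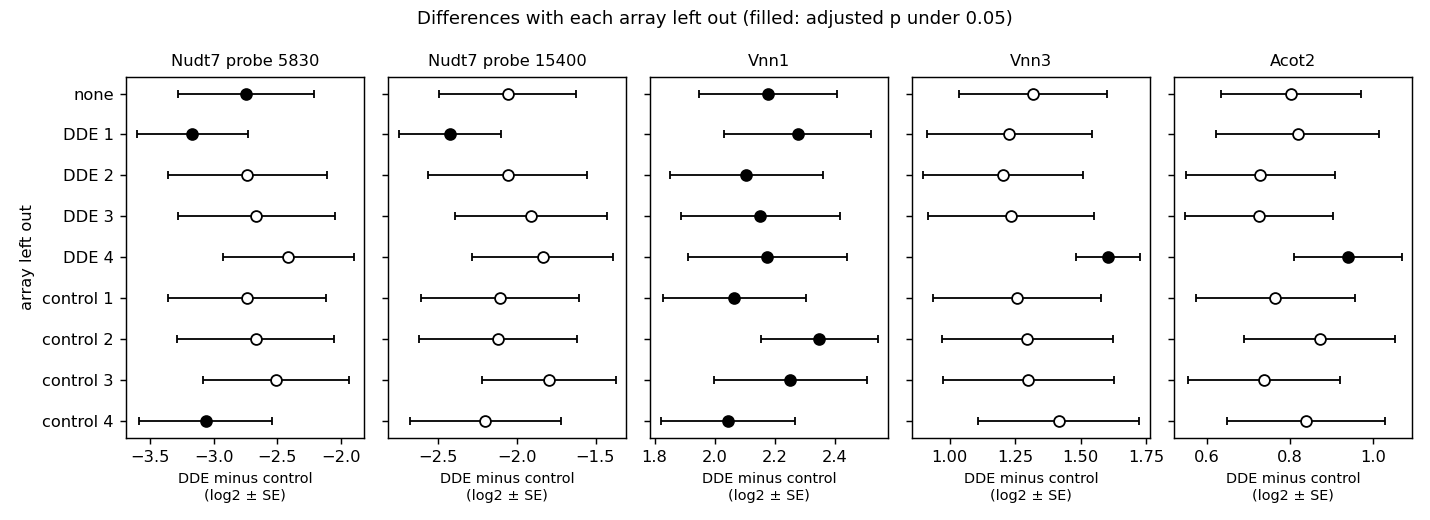
Difference in log2 signal, DDE minus control, with its SE for the 2 Nudt7 probes, Vnn1, Vnn3 and Acot2, from all 8 arrays (top) and with each array left out. Filled points have an adjusted p under 0.05. Vnn1 is filled throughout, and Vnn3 and Acot2 only without DDE 4.

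The other genes were taken in 5 lists. Of these, 3 hold genes that make, carry or use coenzyme A, 1 holds genes of cysteamine and taurine, and 1 PPARalpha targets. In all, 5 of 58 measured genes passed the threshold, 4 higher and 1 lower (limma, adjusted over all probes, at the brightest probe). Of all genes 3.35% passed, 2.58% higher and 0.774% lower, which is the share to set beside each list count below. At an unadjusted p under 0.05 there were 14 higher and 6 lower, while 16.0% of all genes were past it, 11.4% higher and 4.57% lower. In synthesis and transport, 1 of 10 rose and 0 fell, and the list's median difference was 0.18 against 0.02 for all genes. The gene that rose was Slc25a42, which encodes the mitochondrial carrier that brings coenzyme A into the matrix. It had 12.13, 12.06, 11.89 and 11.69 in DDE livers 1 to 4, against 10.92, 10.93, 10.64 and 10.67 in control livers 1 to 4. The groups were far apart beside their spread, 2.22-fold with a 95% interval of 1.82 to 2.72 (adjusted p = 0.00911). Slc25a42 passed without each array in turn (1.09 to 1.24) and with the pancreatic level as a covariate. With the replicate number as a block, Slc25a42 missed the threshold (limma adjusted p = 0.0541). The remaining steps from pantothenate to coenzyme A, Ppcs, Ppcdc and Coasy, and the kinases Pank2 and Pank4 did not pass, with differences from -0.56 to 0.27. Of these Ppcdc was above background in 0 DDE livers and 1 control liver.

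Among the other hydrolases and thioesterases, 0 of 13 passed (limma). Unadjusted, 4 were higher and 0 lower with p under 0.05, with a median difference of 0.02. With all spots kept, the smallest p was that of Baat, which conjugates bile acids with taurine or glycine and also has thioesterase activity. It had 9.98, 10.15, 10.49 and 9.79 in DDE livers 1 to 4, against 9.76, 9.55, 9.17 and 9.14 in control livers 1 to 4. The groups did not overlap, but only narrowly, and the difference of 0.70 ± 0.20 (SE) had an adjusted p of 0.131 (limma). The highest Baat value, in DDE 3, lay on a stained spot. With stained spots left out the Baat difference was 0.57 (limma adjusted p = 0.163). Nudt8, the mitochondrial coenzyme A hydrolase, had a difference of 0.62 (adjusted p = 0.225), and was named after its value was seen.

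Acyl-CoA synthetases, which join free coenzyme A to fatty acids, had differences in both directions. Of 15 measured genes 1 rose and 1 fell, unadjusted 1 and 5, and the median difference was -0.26. Acsm5 and Acsm3 both encode mitochondrial medium-chain acyl-CoA synthetases. Acsm5 rose 2.66-fold, to 13.05 ± 0.45 in DDE, against 11.64 ± 0.38 in control (SD, n = 4 each, limma adjusted p = 0.0435). Acsm3 fell 2.50-fold, to 9.03 ± 0.41 in DDE, against 10.35 ± 0.34 in control (SD, n = 4 each, adjusted p = 0.04). Its other probe had a similar difference of -1.30 but missed the threshold. Acsm2, a gene of the same family named after its value was seen, had 12.77, 10.70, 10.23 and 11.29 in DDE livers 1 to 4, against 13.35, 13.06, 13.66 and 13.02 in control livers 1 to 4. It did not overlap between groups and missed the threshold (-2.02, adjusted p = 0.101), with DDE 1 the highest DDE liver as for Nudt7. With single arrays left out, Acsm5 passed only without DDE 4 and Acsm3 only without DDE 1 or control 4, with an adjusted p of up to 0.128 for Acsm5 and 0.117 for Acsm3, both without DDE 2. With the pancreatic level as a covariate the adjusted p was 0.102 for Acsm5 and 0.0939 for Acsm3, and with trend and robust variance 0.0615 for Acsm5 and 0.0603 for Acsm3.

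In the genes that handle cysteamine, the other product of the pantetheinases, and taurine, 1 of 5 rose and 0 fell, with a median difference of 0.24. Fmo1, whose product oxidizes many drugs and also hypotaurine, had 11.18, 11.60, 11.86 and 10.99 in DDE livers 1 to 4, against 9.66, 10.05, 9.66 and 10.18 in control livers 1 to 4. The groups were apart, 2.87-fold with a 95% interval of 2.00 to 4.12 (limma adjusted p = 0.0206). The second Fmo1 probe passed too, at 1.12. The call was lost without DDE 2, control 1, control 2 or control 3 (adjusted p of up to 0.0698, without DDE 2). Ado, which oxidizes cysteamine, and Cdo1 and Csad of taurine synthesis had differences of 0.12, 0.24 and 0.32, none past the threshold (adjusted p = 0.742, 0.589 and 0.675).

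Of 15 measured PPARalpha target genes outside the 10, 1 rose and 0 fell, unadjusted 5 and 1, with a median difference of 0.16. Cpt1a, which lets long-chain fatty acids into mitochondria, had 12.23, 12.02, 11.95 and 12.23 in DDE livers 1 to 4, against 11.39, 11.20, 11.06 and 10.69 in control livers 1 to 4. This probe did not overlap between groups (limma adjusted p = 0.0234), yet it was the only called probe among the 11 of Cpt1a, whose median difference was 0.61. With the mean of all 11 probes Cpt1a did not pass (adjusted p = 0.366), nor with the pancreatic level as a covariate (adjusted p = 0.0517) or with trend and robust variance (adjusted p = 0.0505). It also missed without DDE 1, 2 or 3 and without control 2 or 3, with up to 0.0707 without DDE 1. At probes other than their brightest, 1 of 3 probes of Cyp4a10 and 1 of 2 of Cpt2 passed. Fgf21 was above background in 1 DDE liver and 2 control livers, and Cyp4a14 in 1 DDE liver and 0 control livers.

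**Figure D5:**
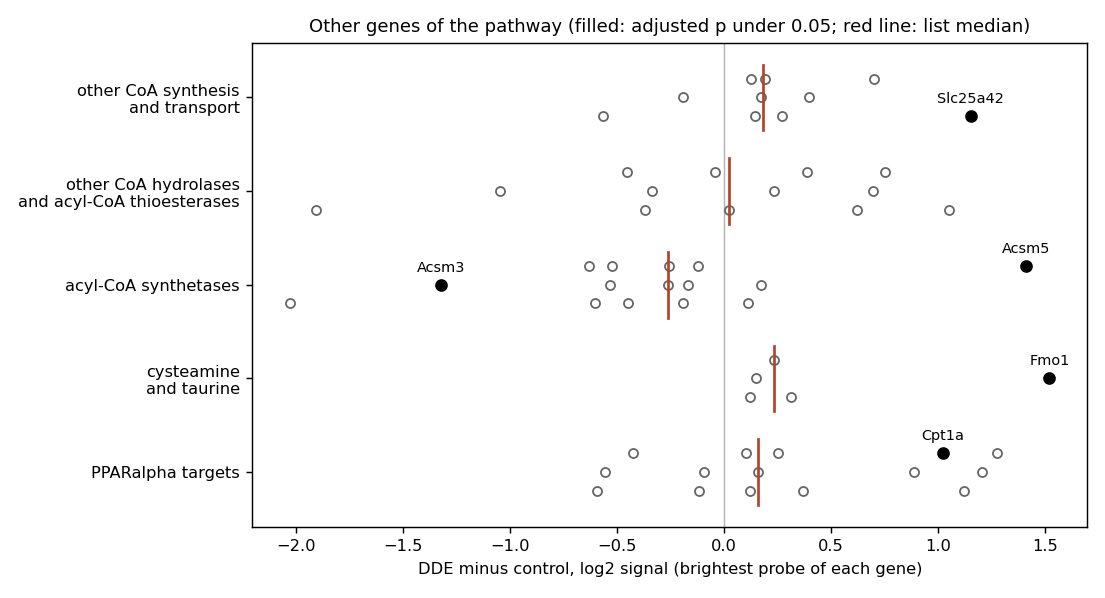
Difference in log2 signal, DDE minus control, for the 58 measured genes of the 5 other lists at their brightest probe, 1 point per gene. The 5 filled and named genes had an adjusted p under 0.05, and red lines are list medians, from -0.26 for the synthetases to 0.24 for cysteamine and taurine.

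The genes whose array-to-array pattern was most like that of Nudt7, after group means were subtracted, were Mfap1a (Pearson r = 0.977), Rprd1a (0.972) and Abcb10 (0.967), over 8 arrays and out of 5431 genes compared. For Vnn1 they were Dedd2 (0.922), Znhit1 (0.913) and Scn3b (0.895). These are descriptions over the same 8 arrays and share their processing and tissue make-up. In 1% of all genes compared, r with Nudt7 was above 0.87 and r with Vnn1 above 0.77. Of the 6 genes, none passed in DDE against control (limma), with Abcb10 at -0.83 (adjusted p = 0.0772) and Scn3b at -1.13 (adjusted p = 0.0595).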

How the data were processed

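Total RNA from 8 livers was labelled with Cy3 and measured on 1-colour arrays, per the labels' protocols. The deposited table holds log2 signals, normalized by the authors before deposit, with nearly equal quartiles on every array. Scanner and slide, and how background and normalization were handled, were not given in the sources used here, so array batches could not be examined. The log2 values were used unchanged. Probes took gene symbols from the supplied annotation table (33009 probes with 1 symbol, 9948 with none). It was designed on reference mouse sequence, and probes may bind Mus spretus transcripts less well. Protein, promoter and probe sequences were not used here.

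Each probe was fitted with limma 3.58.1 (lmFit, eBayes) in R 4.3.3, DDE minus control, without covariates. Two-sided p-values received the Benjamini-Hochberg adjustment over all 42957 probes, with a threshold of 0.05. A gene was represented by its probe with the highest mean. Stained spots were those at which deviations from each probe's median over the 8 arrays, taken as a median over the surrounding 7 by 5 spots, passed 0.3, with positions read from probe numbers at 85 a row. The genes and lists were chosen with earlier results of these data known. Named were all 10 genes, and in each other list the 4 largest differences past the threshold or else the smallest p. For Nudt7 and Vnn1 the 3 genes most similar over arrays were named too, among genes above background with no stained spot and no predicted or Riken symbol. Every other gene given by name fell outside these rules and was named with its values known. Among them are Cd5l, Dcn, Lrat, Col1a1, Ado, Cdo1, Csad, Cyp4a10 and Cpt2.

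Alternatives were quantile normalization, 75th percentile centring, brighter probes only, trend and robust variance, array weights, a replicate block, left-out arrays, the mean of a gene's probes and left-out stained spots. A fit with the level of 7 pancreatic genes as a covariate was added after the data were seen. Some listed genes are not reported here.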

Additional observations from a re-analysis of the deposited data

Results flagged for a closer look

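Of 52 groups of 4 livers examined among the named probes, 3 held a value far from the other 3 livers, and chance alone flags about 5% of such groups. Vnn3 had 10.46 in DDE 4, against 11.57 to 11.66 in the other DDE livers, and this spot was not stained. Nudt19 probe 15681 had 10.68 in DDE 4, against 11.48 to 11.58 in the other DDE livers. Nudt19 probe 28543 had 10.4 in control 4, against 11.51 to 11.59 in the other controls.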

How the results depend on the processing

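Over all 42957 probes 1289 passed, against 511 with trend and robust variance, 2140 with array weights, 436 with the pancreatic level as a covariate and 332 to 1596 with single arrays left out, where fewer samples also enter. Of the 20 probes of the coenzyme A genes 2 passed, against 4 among brighter probes only, 1 with trend and robust variance, 4 with array weights, 4 without DDE 4 and control 4, 1 with the covariate and 1 to 3 with single arrays left out. Of the 10 genes at their brightest probe 2 passed, against 1 with trend and robust variance, 4 with array weights, 4 without DDE 4 and control 4, 1 with the covariate and 1 to 3 with single arrays left out. Of the 58 other genes 5 passed, against 2 with trend and robust variance, 3 without DDE 4 and control 4, 2 with the covariate and 1 to 4 with single arrays left out. With the replicate number as a block in limma, 9 of all probes passed, 0 of the 20 (unadjusted 5 higher and 2 lower), 0 of the 10 genes (5 and 1) and 0 of the 58 (14 and 6), and Vnn1 and Slc25a42 each had an adjusted p of 0.0541. Whether the numbers pair the livers was not settled. Deviations of same-numbered arrays correlated at 0.35, 0.24, 0.21 and -0.12 over 9423 probes, and pairs with unlike numbers at -0.30 to 0.27. DDE 1 and DDE 2 correlated best with their own number, and DDE 3 and DDE 4 with another. Over the 10 genes (both Nudt7 probes, else the brightest) and Slc25a42, Baat, Acsm5, Acsm3, Fmo1 and Cpt1a, the alternatives reversed the direction of Pank3, with -0.20 to 0.08 over the single left-out arrays (0.0817 without DDE 3), and Nudt19 at its brightest probe, with -0.0317 to 0.292 over them (lowest without control 4) and -0.0633 without DDE 4 and control 4. The cause of these shifts was not tested. With 4 arrays a group the precision is limited, and Pank3 lay close to background.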

Other observations

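Pancreatic transcripts were present on all 8 arrays labelled liver. Of 20 pancreatic genes listed after the data were seen, 18 were above background on every array, among them the insulin gene Ins2. Ins2 had 12.41, 7.84, 10.87 and 11.59 in DDE livers 1 to 4, against 12.78, 8.0, 10.67 and 9.69 in control livers 1 to 4. The mean level of 7 genes with no value near the top of the scale was 11.65, 8.88, 10.44 and 11.04 in DDE livers 1 to 4, against 13.61, 8.63, 11.75 and 10.93 in control livers 1 to 4. The means were 10.50 ± 1.19 in DDE and 11.23 ± 2.07 in control (SD, n = 4 each), and the groups overlapped. DDE 2 and control 2 were the lowest of their groups. Glucagon (Gcg) was above background on 4 arrays and the pancreatic factor Ptf1a on 0.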
